A study of Mus musculus with 8 samples.

Results

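Cd14, the Toll-like receptor genes Tlr2, Tlr4 and Tlr6, the adaptor gene Myd88, and Cd180 with its partner Ly86 were followed in cultured mouse spleen dendritic cells. Members were all probe sets whose single platform gene symbol was one of these 7 names. These were 5 genes of 8251 with a probe set of their own and 5 probe sets of the 12422 tested, 1 each for Cd14, Tlr6, Myd88, Ly86 and Cd180. Tlr2 and Tlr4 had no probe set under this rule and were not analysed here. The CD8+ dendritic cells came from spleens of female DBA/2J mice aged 60 days, and the mice of every group, controls included, had been given 10 µg of Flt3-L, a growth factor that expands dendritic cells, for 9 days. The cells were kept for 4 hours with interferon gamma (IFN-γ) from mouse at 200 U/ml, for 4 hours in medium alone, for 16 hours with the same dose of IFN-γ, or for 16 hours in medium alone. Each of these 4 groups had 2 Affymetrix MG-U74Av2 arrays, 8 in all. No label ties the arrays of a group to separate animals or cultures, so p-values here reflect only how far these arrays differ, and part of that may be technical.

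Toll-like receptors are membrane proteins that recognise microbial products. Lipopolysaccharide is handed by CD14 to the complex of TLR4 with its partner MD-2, lipopeptides are recognised by TLR2 paired with TLR6 or TLR1, and MyD88 is the adaptor that joins most of these receptors, and those of the interleukin 1 family, to the kinases that activate NF-κB. CD180, also called RP105, resembles TLR4 outside the cell but lacks its signalling domain, and it sits on B cells, macrophages and dendritic cells together with MD-1, the product of Ly86.

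Values are RMA intensity summaries per probe set, taken here as log2, and a log2 difference is a difference of group means. Each array had a median intensity of 51.3 to 53.7. Unspecific signal was gauged by 15 antisense controls, whose median per array was 5.49 to 5.93 on the log2 scale. Across probe sets, the arrays of a group correlated with r = 0.996 with IFN-γ and 0.997 in medium at 4 hours, and 0.989 with IFN-γ and 0.993 in medium at 16 hours. Of 11 measured markers of CD8+ dendritic cells, 8 were above the antisense median on all 8 arrays, among them Cd8a (8.74 to 9.08), which T cells also express, and Itgax (6.13 to 6.51). Itgae (4.04 to 4.55) and Zbtb46 (4.13 to 4.81) were below it on every array, and Xcr1 was above it on 1 of 8. Also above it on all arrays were 6 of 7 T cell markers, 9 of 11 measured B cell markers, 7 of 10 neutrophil markers, 6 of 13 macrophage markers and 5 of 7 monocyte markers. For CD8- dendritic cells it was 4 of 4, for plasmacytoid dendritic cells 4 of 5, and for NK cells and red blood cells 1 of 4 each. The antisense medians, 44.9 to 61.2 in intensity, lay around the median of all probe sets, so many probe sets are above them. These counts, those of CD8+ dendritic cells included, do not by themselves show which cells were present.

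Cd14, Ly86 and Myd88 were above the antisense median on 8 of 8 arrays, while Tlr6 was above it on 4 of 8 and Cd180 on 0 of 8. Cd14 stood between the 91.1 and 97.1 percentiles of its array's probe sets, Ly86 between 87.7 and 95.1, Myd88 between 76.8 and 82.6, Tlr6 between 44.7 and 56.1, and Cd180 between 11 and 15.5. These places describe the arrays and do not order the transcripts, because probe sets differ in their response to RNA.

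**Figure D1:**
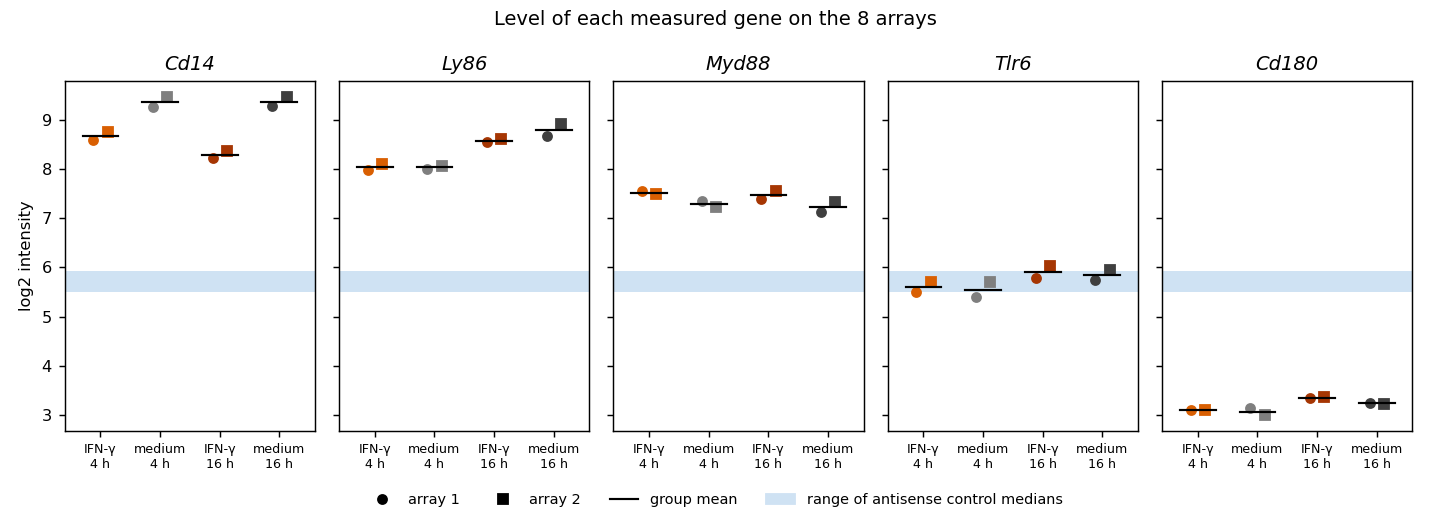
Log2 intensity (vertical axis) of each measured gene on each array, by group (horizontal axis), with array 1 as a circle, array 2 as a square, a bar for the group mean and a band for the range of the antisense control medians. Cd14 is lower with IFN-γ than in medium at both times, Ly86 is higher at 16 than at 4 hours, Tlr6 lies at the band and Cd180 lies far below it.

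Cd14, the co-receptor for lipopolysaccharide, was lower with IFN-γ at both times, and passed the test at 16 hours. At 16 hours its intensity was 295 and 330 with IFN-γ, against 616 and 704 in medium. Both treated arrays lay below both control arrays, and the 2 groups did not overlap. The group means were 8.29 ± 0.11 with IFN-γ and 9.36 ± 0.14 in medium on the log2 scale (SD, n = 2 each). Cd14 fell by 1.08 on the log2 scale, or 2.11-fold, with a 95% interval of the difference from -1.37 to -0.78 (SE 0.13, limma adjusted p = 0.0137, by Benjamini-Hochberg over all 12422 probe sets). It was the 1 member of 5 called at 16 hours, where limma called 32 of 12422 probe sets (0.258%), 20 higher (0.161%) and 12 lower (0.0966%). In all, 4 probe sets had a lower difference than Cd14. The call was lost in 2 alternatives: without array 2 of medium at 16 hours the difference was -0.98 (limma adjusted p = 0.133), and fitting the 4 arrays at 16 hours alone gave an adjusted p of 0.144.

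At 4 hours Cd14 had an intensity of 385 and 428 with IFN-γ, against 612 and 704 in medium. The groups again did not overlap. The means were 8.66 ± 0.11 with IFN-γ and 9.36 ± 0.14 in medium on the log2 scale (SD, n = 2 each), a log2 difference of -0.69 with a 95% interval from -0.99 to -0.40. This difference did not pass without a block (limma adjusted p = 0.106), and passed with the replicate number as a block (limma adjusted p = 0.00335). None of the 5 members was called at 4 hours by limma without the block, which called 32 of 12422 probe sets (0.258%), all higher and 0 lower (0%), and gave an unadjusted p under 0.05 to 499 (4.02%). The block called 135 higher (1.09%) and 22 lower (0.177%), Cd14 among them, and 7 probe sets had a lower difference than Cd14. Fitting the 4 arrays at 4 hours alone gave an adjusted p of 0.0449, and over all alternatives it lay between 0.00335 and 0.987. Actb, whose 3' signal divided by its 5' signal gauges RNA quality, had ratios of 1.47 and 1.65 with IFN-γ and 2.04 and 2.2 in medium at 4 hours, and between 1.57 and 1.68 in both groups at 16 hours. The part of this in the 4-hour difference was not tested.

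The replicate numbers moved together for Cd14. Between arrays of the same number, IFN-γ minus medium was -0.67 and -0.72 at 4 hours and -1.06 and -1.09 at 16 hours on the log2 scale. Array 2 was the brighter in each group.

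When time and treatment were fitted as additive terms over all 8 arrays, Cd14 fell by 0.88 on the log2 scale with IFN-γ (SE 0.10, 95% interval from -1.11 to -0.65, limma adjusted p = 0.0025). That model called 66 of 12422 probe sets (0.531%), 45 higher (0.362%) and 21 lower (0.169%), and 2 had a lower difference than Cd14. Its adjusted p stayed between 0.000159 and 0.0159 under 15 alternatives.

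In medium Cd14 was not shown to change with time. It had 616 and 704 in intensity at 16 hours, against 612 and 704 at 4 hours, with a 95% interval of the log2 difference from -0.29 to 0.30. With IFN-γ it was lower at 16 than at 4 hours, with 295 and 330 in intensity at 16 hours against 385 and 428 at 4 hours. That log2 difference of -0.38 had a limma adjusted p of 0.207, and the replicate block gave 0.0213. The effect of IFN-γ at 16 hours minus that at 4 hours was -0.38 (SE 0.18, 95% interval from -0.80 to 0.03, limma adjusted p = 1, block 0.47). For this difference of effects limma called 0 of 12422 probe sets (0%), 353 had an unadjusted p under 0.05 (2.84%), and the block called 30 (0.242%), with no member among them.

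Cd14 is a gene of monocytes, macrophages and neutrophils as well as of dendritic cells, and in these bulk samples fewer cells of a type cannot be told apart from less RNA per cell. The summed intensity of 7 monocyte markers was 1090 to 1120 with IFN-γ and 1510 to 1570 in medium at 4 hours, and 2080 to 2670 with IFN-γ and 3110 to 3810 in medium at 16 hours. Lyz2, which encodes lysozyme, and Csf1r, the receptor for macrophage colony-stimulating factor, were the 2 of these 7 called lower with IFN-γ in the additive model, by limma (-0.80, adjusted p = 0.0121, and -0.61, adjusted p = 0.0315). Over all probe sets limma called 0.169% lower in that model. Klf4, a transcription factor gene of the same list, had log2 differences for IFN-γ of the opposite sign, 0.54 at 4 hours and 0.79 at 16 hours (limma adjusted p = 0.698 and 0.274, block 0.111 and 0.0217), and was above the antisense median on 5 of 8 arrays. The list's median difference for IFN-γ was -0.10 at 4 hours and -0.05 at 16 hours, and the sum is led by Lyz2, at 1090 and 1530 in intensity with IFN-γ and 1940 and 2540 in medium at 16 hours. The block called 2 of the 7 lower at 4 hours, and 1 higher and 1 lower at 16 hours. Over all probe sets it called 0.177% lower at 4 hours, and 0.411% higher and 0.435% lower at 16 hours. Dimmer probe sets of Lyz2 and Csf1r differed by -0.10 and 0.08, with mean log2 values of 3.17 and 4.73, below the antisense medians. Of the 7, Fcgr3 was below the antisense median on every array. Over the same hours in medium, Lyz2 rose by 1.61 and Csf1r by 1 on the log2 scale (limma adjusted p = 0.00217 and 0.00821).

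The summed intensity of 13 macrophage markers was 1110 to 1150 with IFN-γ and 1160 to 1210 in medium at 4 hours, and 2410 to 2700 with IFN-γ and 2740 to 2920 in medium at 16 hours. Mrc1, Marco and Mertk, of that list, were below the antisense median on every array. The summed intensity of 10 neutrophil markers was 4560 to 4800 with IFN-γ and 5170 to 5240 in medium at 4 hours, and 4120 to 4950 with IFN-γ and 4410 to 4650 in medium at 16 hours, with none of the 10 called for IFN-γ. Ly6g and Cxcr2, of that list, were below the antisense median on every array. Of the macrophage markers Spic was called lower with IFN-γ in the additive model (-0.75, limma adjusted p = 0.048), and the block called 3 of 13 lower there. The part of these cells in the difference of Cd14 was not tested.

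**Figure D2:**
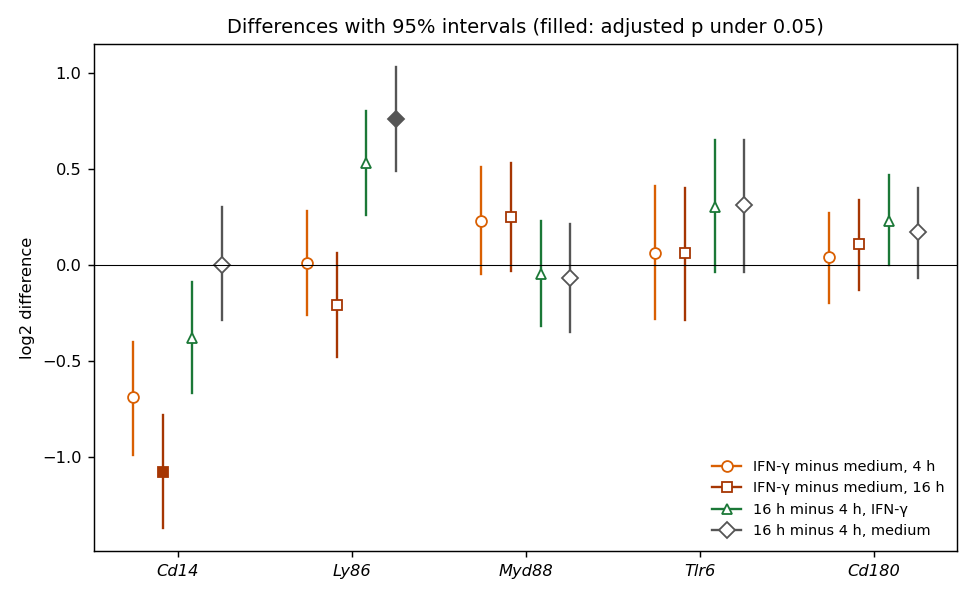
Log2 difference (vertical axis) of each measured gene in 4 comparisons, with its 95% interval from limma; filled symbols passed an adjusted p under 0.05. The filled symbols are Cd14 for IFN-γ minus medium at 16 hours and Ly86 for 16 minus 4 hours in medium.

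Ly86, which encodes the secreted partner MD-1 of CD180, rose with time in medium. Its intensity was 406 and 480 at 16 hours, against 256 and 267 at 4 hours, with no overlap. The means were 8.79 ± 0.17 at 16 hours and 8.03 ± 0.04 at 4 hours on the log2 scale (SD, n = 2 each), a rise of 0.76, or 1.69-fold (SE 0.12, 95% interval from 0.49 to 1.03, limma adjusted p = 0.0103). It was the 1 member of 5 called over time in medium, where limma called 531 of 12422 probe sets (4.27%), 212 higher (1.71%) and 319 lower (2.57%), and 127 probe sets had a higher difference than Ly86. In medium the 3' to 5' ratio of Actb was 1.63 and 1.57 at 16 hours and 2.04 and 2.2 at 4 hours, and that of Gapdh was 0.885 and 0.827 at 16 hours and 1.14 and 1.31 at 4 hours. Their part in this rise, and in the other differences over time in medium, was not tested. Without array 1 or array 2 of medium at 4 hours its adjusted p was 0.119 and 0.0927, and without array 2 of medium at 16 hours it was 0.0671.

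With IFN-γ, Ly86 had 374 and 389 in intensity at 16 hours, against 253 and 274 at 4 hours. Here too the times did not overlap. The log2 difference of 0.53 (95% interval from 0.26 to 0.80) had a limma adjusted p of 0.0599, and the replicate block gave 0.00598. Over time with IFN-γ none of the 5 members was called without the block, and at an unadjusted p under 0.05 there were 2, Cd14 and Ly86, among 1706 probe sets (13.7%). Limma called 263 probe sets there (2.12%), 102 higher (0.821%) and 161 lower (1.3%). The block called 397 higher (3.2%), Ly86 among them, and 862 lower (6.94%), Cd14 among them. Groups without overlap numbered 3 of 5 members over time in medium, where 30.8% of all probe sets were higher and 20.8% lower in this way, and 4 of 5 with IFN-γ, against 21.6% higher and 17.7% lower.

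IFN-γ against medium left Ly86 within its spread at 4 hours, with a log2 difference of 0.01 (95% interval from -0.26 to 0.28). At 16 hours both IFN-γ arrays (374 and 389) lay below both medium arrays (406 and 480). The log2 difference of -0.21 there had a 95% interval from -0.48 to 0.06 (limma adjusted p = 1, block 0.673). The rise with time was not shown to differ between the treatments, with a difference of effects of -0.22 (95% interval from -0.60 to 0.16, limma adjusted p = 1).

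Ly86 is also a gene of B cells and macrophages. The summed intensity of 11 B cell markers was 8890 to 9330 at 16 hours and 6820 to 7090 at 4 hours with IFN-γ, and 8670 to 8740 at 16 hours and 7380 to 7900 at 4 hours in medium. Of the 11, 2 rose with time in medium, Vpreb3 and Blnk, and 3 rose with IFN-γ, Cd22, Blk and Blnk. Over all probe sets limma called 1.71% higher with time in medium and 0.821% with IFN-γ. With the replicate block the counts were 5 in medium and 10 with IFN-γ, where it called 4.52% and 3.2% of all probe sets higher. Blnk, an adaptor of B cell receptor signalling, rose by 0.48 in medium (limma adjusted p = 0.0408) and by 0.65 with IFN-γ (limma adjusted p = 0.0198). A second probe set of Blnk differed by 0.27 and 0.49 and did not pass. Nor did one of Vpreb3 in medium (-0.06, mean log2 value 3.3) or one of Blk with IFN-γ (0.48). The brightest probe set of Ighm, the heavy chain of immunoglobulin M, differed by 0.18 in medium, and its dimmer ones by 0.02 to 1.03, the highest with a limma adjusted p of 0.00232. Cr2 was below the antisense median on every array and Vpreb3 on 7 of 8. Of 13 macrophage markers, 10 rose and 1 fell in medium over the same hours, where limma called 1.71% of all probe sets higher and 2.57% lower. C1qa, of the complement starter C1q, rose by 1.94. Among those that rose, Mrc1 and Mertk were below the antisense median on every array. Spic, which fell, was above it on 3 of 8. The part of these cells in the rise of Ly86 was not tested.

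Cd180 itself could not be followed. Its intensity was 8.66 and 8.64 with IFN-γ and 8.82 and 8.05 in medium at 4 hours, and 10.1 and 10.2 with IFN-γ and 9.54 and 9.38 in medium at 16 hours. The group means lay between 2.41 and 2.61 below the antisense median on the log2 scale. The log2 difference for IFN-γ was 0.04 at 4 hours and 0.11 at 16 hours, and neither passed. Whether Cd180 changed cannot be read from this probe set.

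Tlr6, the partner of TLR2 in the recognition of diacylated lipopeptides, lay at the level of the antisense controls. Its intensity was 45.1 and 52.4 with IFN-γ and 41.8 and 52 in medium at 4 hours, and 55 and 65.4 with IFN-γ and 53.7 and 61.8 in medium at 16 hours. The treatments overlapped at both times, with log2 differences of 0.06 at 4 hours (95% interval from -0.28 to 0.41) and 0.06 at 16 hours (95% interval from -0.29 to 0.40). Over time in medium the log2 difference of Tlr6 was 0.31 (limma adjusted p = 0.373, block 0.049), and with IFN-γ it was 0.30 (limma adjusted p = 0.444, block 0.0601). With the block 562 of 12422 probe sets were called higher over time in medium (4.52%). At this signal the size of any change is uncertain.

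Myd88, the shared adaptor, was higher with IFN-γ on both arrays at both times but did not pass. At 4 hours its intensity was 188 and 178 with IFN-γ, against 163 and 149 in medium. At 16 hours it was 166 and 189 with IFN-γ, against 139 and 159 in medium. The groups did not overlap at either time. The log2 difference was 0.23 at 4 hours (95% interval from -0.05 to 0.51) and 0.25 at 16 hours (95% interval from -0.03 to 0.53), each with a limma adjusted p of 1. In the additive model it was 0.24, or 1.18-fold, with a 95% interval from 0.06 to 0.42 (unadjusted p = 0.0143, limma adjusted p = 0.657, block 0.271), and 216 of 12422 probe sets had a higher difference. Groups that do not overlap are common with 2 arrays each: 15.4% of all probe sets were higher on both IFN-γ arrays at 4 hours and 17.9% lower, and 9.1% were higher and 9.85% lower at 16 hours. Among the 5 members, 2 did not overlap at 4 hours, Cd14 and Myd88, and 4 at 16 hours. Those at 16 hours were Cd14 and Ly86, lower, and Myd88 and Cd180, higher, and Cd180 was below the antisense median on every array. Over time Myd88 differed by -0.05 with IFN-γ and by -0.07 in medium, with overlapping arrays.

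Of the 5 measured members, 4 had 6 promoter windows that were searched for the members' matches, and no window of Cd14 was among them. Those of Myd88 and Ly86 are shown because the treatment was an interferon and both genes were above the antisense median on every array. Each window runs from 250 bases before to 50 bases after a gene's start (RefSeq, build GRCm38.p6, 5′ to 3′ on the gene's strand), and capitals mark matches, on both strands, to a gamma-activated site (TTCNNNGAA), an interferon-stimulated response element (GAAANNGAA), an NF-κB site (GGNNTTTCC) or the core of a PU.1 site (GAGGAA). The Myd88 window is chr9:119339969-119340268 on the minus strand and the Ly86 window is chr13:37345095-37345394 on the plus strand.

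Myd88: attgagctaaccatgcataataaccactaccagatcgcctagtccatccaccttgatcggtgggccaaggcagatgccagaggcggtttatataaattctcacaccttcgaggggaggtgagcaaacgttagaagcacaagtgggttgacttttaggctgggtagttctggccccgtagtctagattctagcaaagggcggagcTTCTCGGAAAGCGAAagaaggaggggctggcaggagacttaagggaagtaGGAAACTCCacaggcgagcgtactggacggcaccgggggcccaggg

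Ly86: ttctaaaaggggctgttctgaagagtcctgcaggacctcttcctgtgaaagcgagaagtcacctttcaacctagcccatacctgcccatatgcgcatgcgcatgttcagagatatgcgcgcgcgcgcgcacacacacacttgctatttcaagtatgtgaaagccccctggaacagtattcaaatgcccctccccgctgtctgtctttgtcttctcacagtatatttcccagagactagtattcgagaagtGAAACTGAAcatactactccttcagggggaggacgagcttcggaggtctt

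The Myd88 window held a gamma-activated site match at -46 to -38 from the start, an interferon-stimulated response element match at -40 to -32 that shares bases with it, and an NF-κB match on the other strand at 5 to 13. The Ly86 window held 1 match, to the interferon-stimulated response element, at 1 to 9. Tlr6, with a log2 difference of 0.06 for IFN-γ at both times, had 2 windows, 1 with 2 interferon-stimulated response element matches and 1 with 2 gamma-activated site matches, and the 2 windows of Cd180 held none. Of 32851 promoter windows of the same length, 8.3% held a gamma-activated site match, 8.56% an interferon-stimulated response element match, 5.82% an NF-κB match and 28.3% a PU.1 match. A match is a run of letters and not a shown binding site.

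Beyond the members, the Toll-like receptor pathway was described from lists of other receptors and accessory proteins, signalling proteins, induced targets, and receptors of the interleukin 1 family. For IFN-γ against medium none of the listed genes was called at 4 or at 16 hours by limma without the block. Median log2 differences of these 4 lists lay between -0.13 and 0.07 at 4 hours and between -0.03 and 0.04 at 16 hours, against -0.01 and 0 over all probe sets. With the replicate number as a block 4 of 29 induced targets were called higher at 4 hours, among 135 probe sets (1.09%). They were Cd40 (0.66), Cd86 (0.50), Tnfaip2 (0.44) and Tnfaip3 (0.69). At 4 hours the 3' to 5' ratio of Actb was 1.47 and 1.65 with IFN-γ and 2.04 and 2.2 in medium. That of Gapdh was 0.876 and 0.918 with IFN-γ and 1.14 and 1.31 in medium. The part of this in these 4 differences was not tested. At 16 hours, where the block called 51 probe sets higher (0.411%) and 54 lower (0.435%), it called Acod1 (1.07) higher, and Il1b (-0.87), Ier3 (-0.60) and the receptor gene Itgam (-0.55) lower. A dimmer probe set of Acod1, with a mean log2 value of 5.17, differed by 0.51 at 16 hours (limma adjusted p = 0.529). In the additive model the block called 4 of 29 targets higher and 1 lower, among 88 probe sets higher (0.708%) and 69 lower (0.555%). Without the block limma called 1 higher and 1 lower, against 0.362% and 0.169% of all probe sets. Those 2 were Tnfaip2, a gene induced by tumour necrosis factor (0.41, SE 0.07, limma adjusted p = 0.0303), and Il1b, the gene of interleukin 1β (-0.67, SE 0.12, limma adjusted p = 0.049). Il1b read 6.79 and 7.19 with IFN-γ and 7.72 and 8 in medium at 16 hours on the log2 scale.

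Other receptors and accessory proteins were measured for 7 of 18 genes, with 4 above the antisense median on all 8 arrays. Tlr7, a receptor for single-stranded RNA, read 5.07 to 5.46 on the log2 scale and was below that median on every array, as was the scavenger receptor gene Cd36. Over time in medium 2 of the 7 rose and none fell, where limma called 1.71% of all probe sets higher. Itgam and Itgb2 encode the 2 chains of complement receptor 3, and rose by 1.12 and 0.68 on the log2 scale (limma adjusted p = 0.00858 and 0.0183). Itgam was above the antisense median on 3 of 8 arrays. Over time with IFN-γ, Itgb2 rose by 0.74 (limma adjusted p = 0.0197), and so did Unc93b1, whose product carries the nucleic acid receptors to endosomes, by 0.69 (limma adjusted p = 0.0384). The list's median was 0.16 in medium and 0.18 with IFN-γ, against 0.05 over all probe sets in each.

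Of 28 measured signalling genes of 40, 4 fell over time in medium and none rose, where limma called 2.57% of all probe sets lower. Nfkb2 (-0.82), Relb (-0.72) and Rela (-0.62), which encode NF-κB subunits, and Traf6 (-0.64), the ubiquitin ligase below MyD88, had limma adjusted p-values from 0.0219 to 0.0405. Nfkb2 read 8.18 and 7.88 on the log2 scale at 16 hours in medium, against 8.99 and 8.71 at 4 hours. Traf6 read 6.83 and 7.10 at 16 hours, against 7.51 and 7.69 at 4 hours. Dimmer probe sets of Traf6 differed by -0.40 and 0.02, and one of Rela by -0.09. Their mean log2 values of 5.57, 5.27 and 3.11 lay near or below the antisense medians of 5.49 to 5.93. With IFN-γ 2 of the 28 fell over time, Relb (-0.70) and Nfkb2 (-0.75), where limma called 1.3% of all probe sets lower. The block called 6 lower in medium and 5 with IFN-γ, where it called 1005 (8.09%) and 862 probe sets lower. Irak1, which encodes a kinase of the MyD88 complex, differed by -0.24 in medium and -0.05 with IFN-γ over time and did not pass.

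Among the 29 measured induced targets of 30, 7 fell and 1 rose over time with IFN-γ, and 6 fell and 1 rose in medium. Over all probe sets limma called 1.3% lower and 0.821% higher with IFN-γ, and 2.57% lower and 1.71% higher in medium. Cd40, a costimulatory receptor, fell by 1.49 over time with IFN-γ and by 1.16 in medium (limma adjusted p = 0.000957 and 0.00217). Icam1, an adhesion molecule, fell by 1.11 with IFN-γ and by 0.93 in medium. Cxcl2, a neutrophil chemokine, fell by 0.99 with IFN-γ but read near the antisense controls. Cd86 fell by 0.90 with IFN-γ, where a dimmer probe set differed by -0.71 (limma adjusted p = 0.0566). That probe set had a mean log2 value of 5.27, below the antisense medians. Acod1, the enzyme that makes itaconate, fell by 0.97 in medium, where its dimmer probe set differed by -0.47 (limma adjusted p = 0.111). The gene that rose was Ccl2, a monocyte chemokine, by 1.09 with IFN-γ and by 1.63 in medium. With the block 15 fell and 1 rose with IFN-γ, and 11 fell and 3 rose in medium. Of all probe sets the block called 6.94% lower and 3.2% higher with IFN-γ, and 8.09% lower and 4.52% higher in medium. The list's median was -0.38 with IFN-γ and -0.25 in medium, against 0.05 over all probe sets in each. Of the 5 measured interleukin 1 receptor family genes none was called in any comparison, and Il1r2, the decoy receptor that does not signal, was the only one of them above the antisense median on all 8 arrays.

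**Figure D3:**
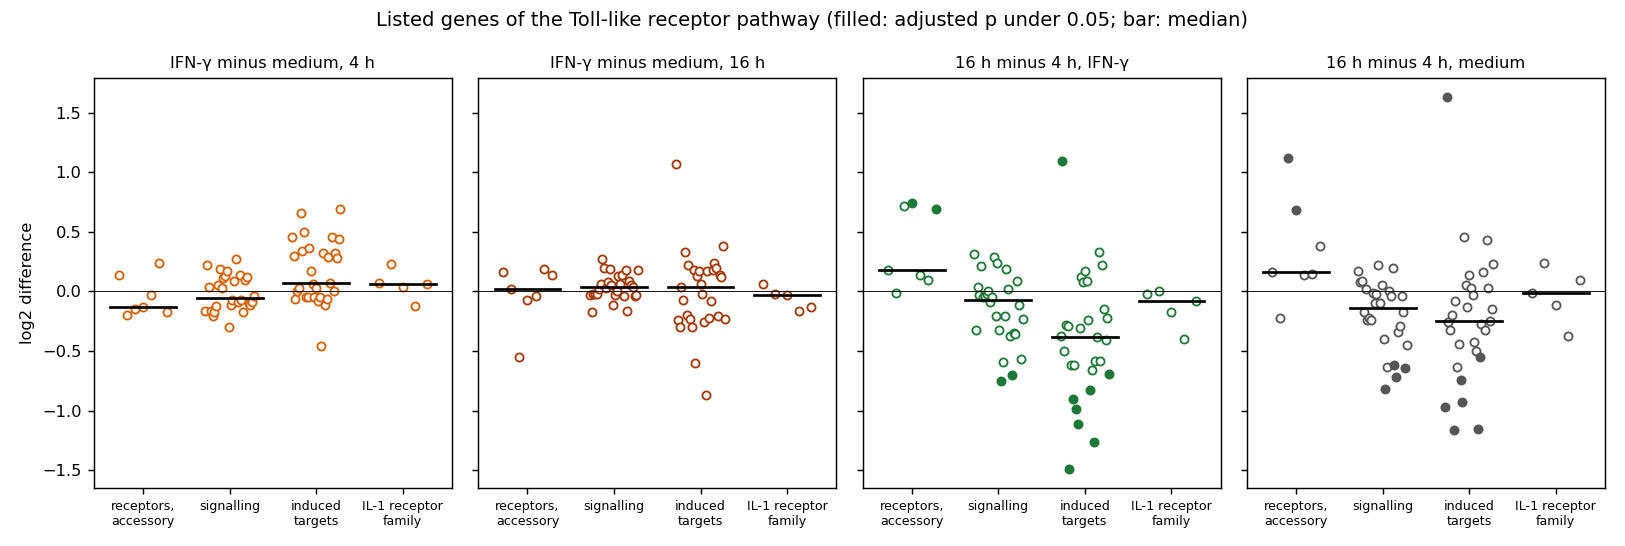
Log2 difference (vertical axis) of each listed gene in 4 lists (horizontal axis), 1 panel per comparison, with a bar for the list's median; filled points passed an adjusted p under 0.05. No point is filled for IFN-γ minus medium, and 7 induced targets lie lower and filled over time with IFN-γ, against 6 in medium.

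Patterns most like those of the called members were sought among 1013 other probe sets whose group means spanned at least 0.5 on the log2 scale and rose above the antisense median. S100a4, which encodes a calcium-binding protein, was most like Cd14, with Pearson r = 0.963 over 8 arrays. It read 8.29 and 8.65 with IFN-γ at 16 hours, against 9.15 and 9.35 in medium, and its log2 difference was -0.78 (limma adjusted p = 0.0922). Rnf149 (r = 0.888), Ahnak (r = 0.885), Gusb (r = 0.882), which encodes the lysosomal enzyme beta-glucuronidase, and Anxa3 (r = 0.876), which encodes an annexin, came next. Their log2 differences at 16 hours ran from -0.90 for Anxa3 to -0.40 for Rnf149, and none of them passed.

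Ly86 was followed closely by Emb, which encodes the membrane glycoprotein embigin (r = 0.997 over 8 arrays). Emb rose by 0.74 over time in medium (limma adjusted p = 0.0166). Smpdl3a (r = 0.982), Mpp1 (r = 0.981), Rin2 (r = 0.981) and App (r = 0.98), the gene of the amyloid precursor protein, came next, with rises of 0.67 to 1.11 over time in medium, each called by limma. Over all probe sets limma called 1.71% higher there. These correlations describe 8 arrays that share 4 groups. The genes were picked on the same arrays for likeness to Cd14 or Ly86, so their differences largely follow from that choice and are no separate evidence. Between the members, Cd14 and Ly86 had r = 0.02 over the 8 arrays.

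**Figure D4:**
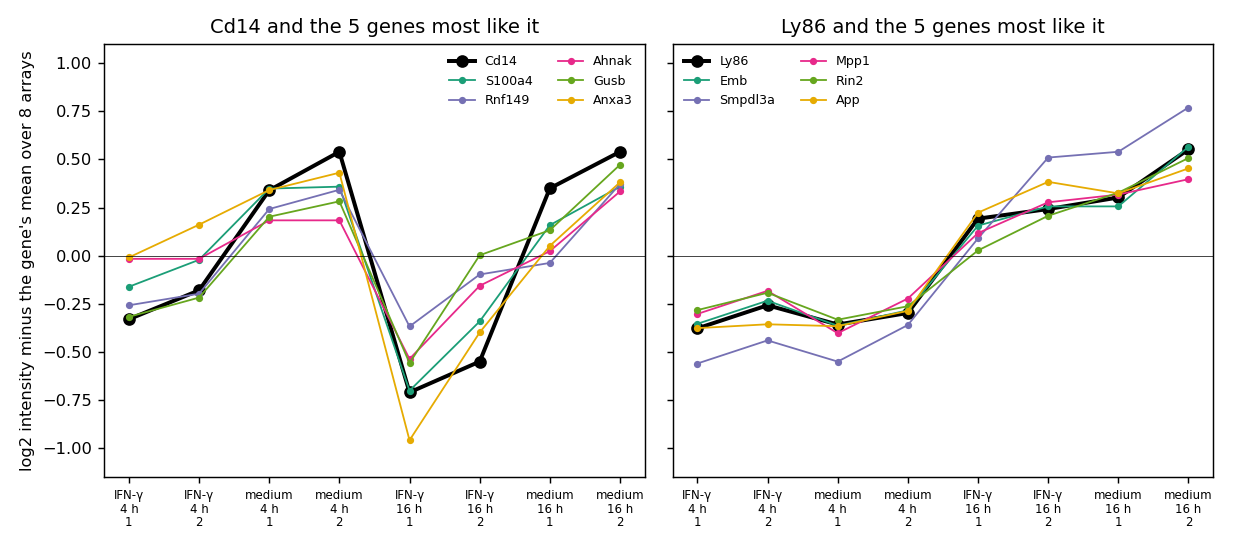
Log2 intensity minus each gene's mean over the 8 arrays (vertical axis) on each array, grouped by treatment and time (horizontal axis), for Cd14 and for Ly86 in black with the 5 genes most like each; the lines only join a gene's points. Cd14 is low on the 4 IFN-γ arrays and lowest at 16 hours. Rnf149 and Gusb are also low with IFN-γ, with like means at both times. The Ly86 panel is high on the 4 arrays at 16 hours.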

How the data were processed

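The authors deposited 1 table of intensity values per probe set for 8 arrays, and RMA is the tool given in the submitters' processing notes; its version and settings are not given in the sources used here. The values run from 2.65 to 12523.46 and are therefore linear. They were turned into log2 without a pseudocount. The file holds 12488 probe sets, of which the 66 controls of the array were dropped. The platform annotation gave 1 symbol to 10833 probe sets, several to 396 and none to 1193.

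Group means over all 8 arrays were compared with limma 3.58.1 in R 4.3.3 (two-sided, Benjamini-Hochberg over 12422 probe sets, called under 0.05). For lists, each gene's brightest probe set was used, and up to 4 genes called per list and comparison are named by smallest p; names called only with the block, Tlr7, Cd36, Irak1, Il1r2, Klf4, Ighm, and markers given for their level, were chosen after their values were seen. The 5 genes most like Cd14 and Ly86 were taken by Pearson r. Members and lists were chosen with earlier results of these data known. The number of arrays limits the precision.

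Same-numbered arrays deviated together: the 6 correlations between groups of array 2 minus array 1 lay between 0.367 and 0.74. No label says what arrays of the same number share, so this does not show that the numbers pair the arrays. The main calls come from fits without the numbers as a block, and the block is an alternative. The test was run on simulated data with known changes and independent noise on each array, so arrays that deviate together were not simulated. Of changes of 0.5 on the log2 scale it recovered 26% at 4 hours and 26% at 16 hours. Of changes of 1 it recovered 77% at 4 hours and 79% at 16 hours. The simulation changed 50 probe sets by 0.5, 100 by 1 and 50 by 2, against 32 called at each time in the data. If fewer probe sets change in the data, adjusted p-values are stricter there and recovery may be lower. A difference that did not pass can thus still be a change.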

Additional observations from a re-analysis of the deposited data

How the results depend on the processing

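For Cd14 and IFN-γ, every log2 difference kept its sign: -1.17 to -0.98 at 16 hours and -0.79 to -0.59 at 4 hours over 16 alternatives each, and -0.96 to -0.81 in the additive model over 15. Ly86 over time in medium ranged from 0.64 to 0.88 over 16. These were the replicate block, quantile normalization, median centring, a pseudocount of 16, a filter on the dimmest 40%, a robust and trended prior, only the arrays compared, each array left out in turn, and 1 mean value per gene; the fit of only the arrays compared does not apply to the difference of effects or the additive model, and Cd180 has no value without the dimmest 40%. With 1 array dropped, its partner is taken to spread as the other groups do.

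The count of members called at 16 hours, 1, was 0 with only the arrays compared and at an adjusted p under 0.01, and 0 to 1 when an array was left out. At 4 hours, 0, it was 1 with the replicate block and 1 with only the arrays compared. Over time in medium, 1, it was 2 with the block, 0 at an adjusted p under 0.01, and 0 to 1 when an array was left out. Over time with IFN-γ, 0, it was 2 with the block, and 1 with quantile normalization, a pseudocount of 16, without the dimmest 40%, with a trended and robust prior, and with 1 mean value per gene. The block changed no other member's call than those given beside the results. The causes of these changes were not tested.

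Differences within the spread of the arrays changed sign when an array was left out: Cd180 at 4 hours between -0.03 and 0.1, Ly86 at 4 hours between -0.05 and 0.07, Tlr6 between -0.09 and 0.22 at 4 hours and between -0.07 and 0.18 at 16 hours, and Myd88 between -0.14 and 0.05 over time with IFN-γ, between -0.17 and 0.03 in medium, and between -0.08 and 0.12 for the difference of effects. Cd14 over time in medium (-0.1 to 0.1) and the difference of effects of Tlr6 (-0.16 to 0.15), both 0 with all arrays, fell on either side of 0. The totals over all probe sets moved more than 1.5 times with the block and with the arrays used. At 4 hours 32 were called, against 157 with the block, 93 with only the arrays compared and 8 to 67 when an array was left out. At 16 hours it was 32, against 105, 7 and 10 to 38. Over time in medium it was 531, against 1567, 739 and 73 to 923, and with IFN-γ 263, against 1259, 120 and 27 to 708. In the additive model it was 66, against 157 with the block and 36 to 77 when an array was left out.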
